A study of Rattus norvegicus with 91 samples.

Results

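The genes described here are 6 nuclear receptors of the liver (Nr1i2, Nr1i3, Ppara, Rxra, Nr1h4 and Nr1h3) together with Hnf4a, read in rat liver after methylprednisolone. Members were the probe sets (the sets of oligonucleotides that report 1 transcript) annotated with the symbol of 1 of these 7 genes and no other, which gave 7 of the 10620 genes and 15 of the 24722 probe sets on both array designs. The 8799 probe sets of one design held 7 of them for 5 genes, with none for Nr1i2 or Nr1i3. The 15923 of the other held 8 for all 7 genes.

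Liver RNA of Wistar rats given 50 mg/kg of the glucocorticoid methylprednisolone, per the labels, was hybridised to 91 Affymetrix arrays, controls included. In the short course, treated livers were sampled at 0.25, 0.5, 0.75, 1, 2, 4, 5, 5.5, 6, 7, 8, 12, 18, 30, 48 and 72 h, with 3 arrays at each time except 2, 5, 12, 30 and 72 h with 2, against 4 controls. In the long course they were sampled at 6, 10, 13, 18, 24, 36, 48, 72, 96 and 168 h, with 4 arrays at each time, against 4 controls. The labels give no route, schedule, vehicle, sex or age. Nor do they state that each array is a different rat, so a p-value here measures the spread between arrays, part or all of which may be technical.

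Nuclear receptors are transcription factors, many of them switched by small lipophilic ligands. In hepatocytes Nr1h4 (farnesoid X receptor, FXR) senses bile acids, Nr1h3 (liver X receptor alpha, LXRα) oxysterols, Nr1i2 (pregnane X receptor, PXR) and Nr1i3 (constitutive androstane receptor, CAR) drugs and steroids, and Ppara fatty acids. All of them bind DNA with Rxra, the common partner, while Hnf4a binds as a pair with itself and maintains the hepatocyte programme.

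Signals are intensities on a linear scale. Changes are differences of log2(signal + 32) from the controls of the same course ± standard error, fitted with limma over all arrays of a course, and the added constant understates changes of dim probe sets. A probe set passed at an adjusted p under 0.05, after Benjamini-Hochberg adjustment over the 6118 probe sets tested in the short course or the 11106 in the long one. The courses were scaled apart, so no level is set against the other course. Where arrays are said to lie above or below every control, the share over all probe sets was not counted.

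Some arrays stood apart from the rest. Of the short-course arrays 9 had a mean correlation with the others under 0.9 (range over all arrays 0.865 to 0.929): control replicates 1 and 3, 0.5 h replicate 3, 2 h replicate 1, 4 h replicate 3, 5 h replicate 2, 7 h replicate 3, 8 h replicate 3 and 72 h replicate 2. Of the long-course arrays this held for 96 h replicate 3 alone, and the spiked hybridization controls were bright on 15 arrays and dim on 29. The bright ones include all 11 arrays numbered 4, among them 1 of the 4 controls. The other bright ones are 48 h replicate 3, 96 h replicate 3 and 168 h replicates 2 and 3. Of the 168 h arrays only replicate 1 was dim. Of 20 listed hepatocyte secretory genes, 18 were measured and above the filter on low signal in each course. In bulk liver, fewer hepatocytes and less RNA per hepatocyte cannot be told apart.

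Across the short course, 5 of the 7 member probe sets passed an F test for any difference between groups, against a background of 33.6% of all probe sets. In the windows, 1 passed at 0.25-0.75 h (background 3.42%), 3 at 1-2 h (12.2%), 2 at 4-8 h (27%) and 0 at 12-18 h (0.997%) and at 30-72 h (0.0981%), where limma also gave 0 at an unadjusted p under 0.05. All of these window calls were decreases, of Nr1h4, Nr1h3 and 1 probe set of Hnf4a. Between 30-72 h and 4-8 h, 2 members differed (36.7%). The share called at 4-8 h, 2 of 7, lies near that of all probe sets.

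Over the long course 4 of the 7 tested probe sets passed the F test (background 23.8%). By limma 0 passed at 6-18 h (9.31%), with 2 at an unadjusted p under 0.05, while 2 passed at 24-48 h (5.23%) and 3 at 72-168 h (10.8%). These were increases, of Nr1i3, Nr1i2 and Nr1h3. Between 72-168 h and 6-18 h, 4 members differed (21.2%), all higher in the later window.

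**Figure D1:**
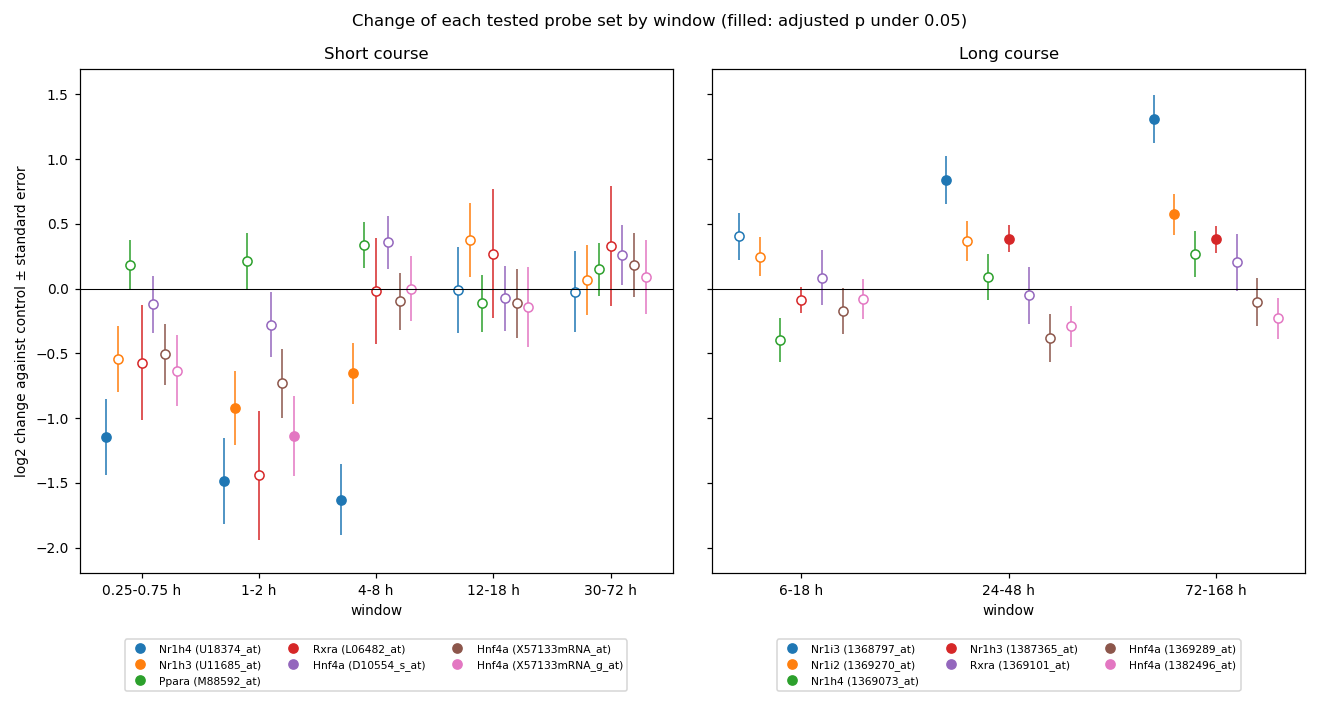
Log2 change against control (y axis, ± standard error) of each tested probe set in the windows of the short course (left) and the long course (right). Filled points have an adjusted p under 0.05. Nr1h4 is lowest in the short course at 4-8 h, at -1.63, and Nr1i3 is highest in the long course at 72-168 h, at 1.31.

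Nr1h4, the bile acid receptor, had the largest window decrease of the members. Its signal was 138 to 714 with a median of 367 on the 17 arrays at 4-8 h, against 1875, 1266, 1362 and 769 on the short-course controls. All 17 arrays were below every control. The change was -1.63 ± 0.27 (adjusted p = 5.37e-05), or 0.323 times the control level of signal + 32.

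Within the first hour all arrays of a time lay below every control only at 0.5 h. Nr1h4 read 313, 297 and 225 at 0.5 h and 449.8 and 267 at 2 h, below all 4 controls. At 0.25 h 1 of the 3 arrays lay among the controls, and at 0.75 h 2 of the 3 did. At 4 h, the lowest time, it averaged 250.3 ± 110.2 (SD, n = 3), against 1318 ± 453 in the controls (SD, n = 4). The 3 arrays at 0.5 h were also below every control for Nr1h3, Rxra and the Hnf4a probe sets X57133mRNA_at and X57133mRNA_g_at. They overlapped with the controls for Ppara and the Hnf4a probe set D10554_s_at. At 0.75 h all of these overlapped with the controls except Ppara, which was above them. A shared effect of the 0.5 h arrays was not tested. How many of all probe sets lay wholly below the controls at 0.5 h was not counted, so these overlaps are no result about the members. Of all probe sets tested 8.81% were called at that time.

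The window changes of Nr1h4 were -1.15 ± 0.30 (adjusted p = 0.0246) at 0.25-0.75 h and -1.48 ± 0.33 (adjusted p = 0.00421) at 1-2 h. Single times passed at 0.5 h (background 8.81%), 2 h (15%), 4 h (18.1%), 5.5 h (12.7%), 6 h (11.5%), 7 h (8.4%) and 8 h (13.2%), with changes between -1.35 and -2.27. By 12 h Nr1h4 was back among the controls, at 1267 and 1369, and at 30-72 h it was 859.7 to 1576 with a median of 1276. No array from 12 h on was below the lowest control. The later window was tested directly against the earlier one, and 30-72 h lay 1.61 ± 0.22 (adjusted p = 1.02e-06, 7 of 7 arrays above the 4-8 h mean) above 4-8 h.

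Leaving out the 9 short-course arrays of low correlation also removes controls: replicates 2 and 4 remain, and at 2 h replicate 2 alone. A call lost in this fit can reflect the fewer controls. Without these 9 arrays, the Nr1h4 change was -1.29 at 4-8 h (adjusted p = 0.0431) and the later window lay 1.47 above it (adjusted p = 0.000286). The changes at 0.25-0.75 h and 1-2 h were then -0.76 and -1.32 and did not pass (adjusted p = 0.442 and 0.156), and of the single times only 4 h did. Leaving out 1 array ended the 0.25-0.75 h call for 0.25 h replicate 2 and control replicates 1 and 3 (adjusted p = 0.0551 to 0.111), and the 2 h call for 2 h replicate 2 (0.0988). It also ended the 6 h call for 6 h replicates 1 and 3 (0.0587 to 0.0721) and the 7 h call for 7 h replicates 1 and 3 and control replicates 1 and 3 (0.0592 to 0.0846).

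**Figure D2:**
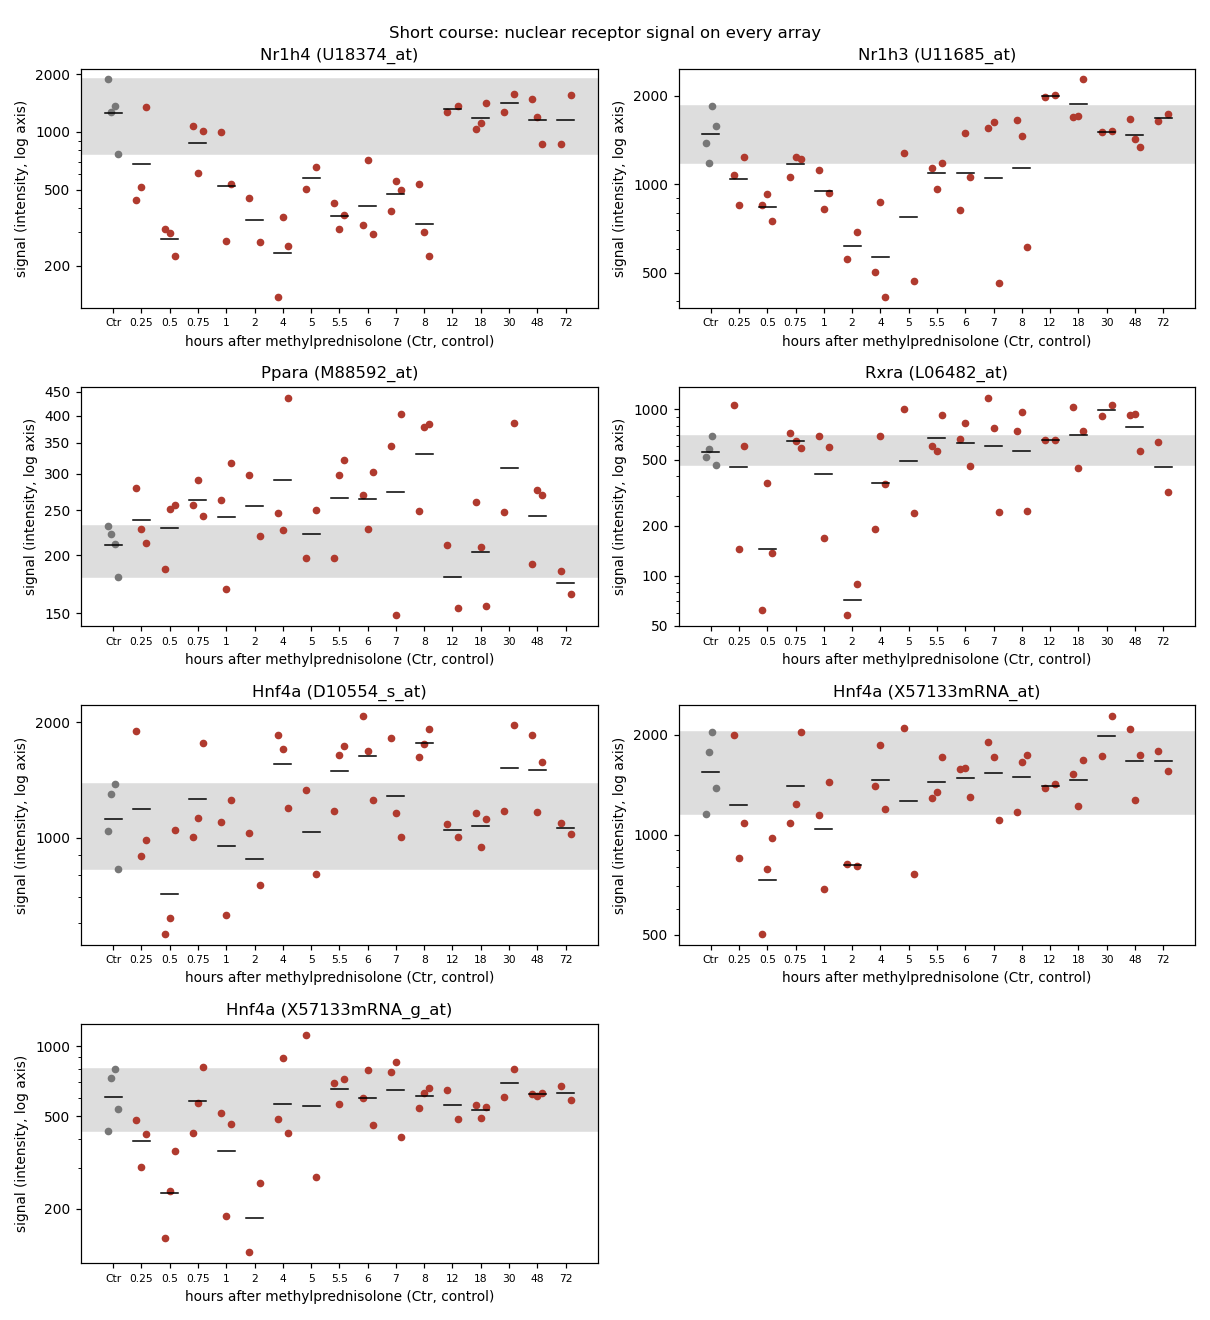
Signal (y axis, log scale) of the 7 member probe sets on every array of the short course, by hours after methylprednisolone with the controls (Ctr) at the left. Red points are treated arrays and grey points controls, bars are geometric means, and the grey band spans the controls. Nr1h4 lies below the band on all 17 arrays at 4-8 h and inside it on every array from 12 h on.

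The long-course probe set of Nr1h4 differed from its controls less. It read 225, 292, 302 and 287 at 10 h, against 368, 328, 607 and 590.4 in the controls, so that all 4 arrays lay below the lowest control. The 10 h change was -0.67 ± 0.22 (adjusted p = 0.0482) (background 7.55%). This call ended in 28 of the 44 fits that left out 1 array, with adjusted p up to 0.176, among them those without any 1 of the 10 h arrays and without control replicate 3 or 4. It also ended with median centring (adjusted p = 0.0969) and on the arrays with dim spiked controls alone (-0.58, adjusted p = 0.195). No window passed against the controls, with -0.40 ± 0.17 (adjusted p = 0.15) at 6-18 h and 0.27 ± 0.18 (adjusted p = 0.403) at 72-168 h.

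Between its own windows Nr1h4 did differ in the long course. The signal was 390.0 to 773 with a median of 594 at 72-168 h, against 205 to 544 with a median of 328 at 6-18 h, with overlap between the windows. The difference was 0.66 ± 0.12 (adjusted p = 5.05e-05, 12 of 12 arrays above the 6-18 h mean). On the arrays with dim spiked controls it was 0.79 (adjusted p = 0.00287) and on those with bright ones 0.33 (adjusted p = 0.648). At 6 h, which both courses sampled, Nr1h4 changed by -0.26 in the long course and by -1.54 in the short course. This difference was not tested. The courses used different array designs, probe sets and controls, and no dosing schedule is given, so dosing up to 6 h may differ too. These cannot be told apart.

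Genes of bile acid synthesis and transport, and other known Nr1h4 targets, were read beside the receptor. At 4-8 h of the short course 2 of 17 rose and 6 fell, with a list median of -0.43 against 0.10 for all probe sets. Of all 6118 probe sets 1005 rose and 645 fell there, the background for each list below in that window. Baat, which conjugates bile acids to amino acids, fell by 2.75 ± 0.67 (adjusted p = 0.00241). Hsd3b7, an enzyme of bile acid synthesis, fell by 1.85 ± 0.23 (adjusted p = 7.74e-07), and Slc10a1, the main bile acid uptake transporter, fell by 1.69 ± 0.49 (adjusted p = 0.00929). Cyp7b1, an oxysterol hydroxylase, rose by 2.52 ± 0.37 (adjusted p = 1.01e-05). Nr0b2 (small heterodimer partner, SHP), an Nr1h4 target that represses bile acid synthesis and is named as the largest called change among the other nuclear receptors, fell by 1.47 ± 0.43 (adjusted p = 0.0112). Abcb11, the bile salt export pump and another Nr1h4 target, chosen after its values were seen, changed by 0.20 ± 0.13 (adjusted p = 0.237).

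Of the same list in the long course, 1 of 19 rose and 4 fell at 6-18 h. At 24-48 h 2 of 19 rose and 0 fell, and at 72-168 h 2 of 19 rose and 2 fell. Of all 11106 probe sets tested there, 515 rose and 519 fell at 6-18 h. At 24-48 h 290 rose and 291 fell, and at 72-168 h 534 rose and 668 fell. These counts are the background for each list below in those windows. At 6-18 h Nr0b2 fell by 1.56 ± 0.31 (adjusted p = 0.00067), and Cyp7a1, the rate-limiting enzyme of bile acid synthesis, rose by 1.23 ± 0.38 (adjusted p = 0.0313). At 72-168 h Slc27a5, the bile acid CoA ligase, rose by 1.38 ± 0.18 (adjusted p = 7.72e-07), while Akr1d1, a reductase of bile acid synthesis, fell by 1.39 ± 0.35 (adjusted p = 0.00546).

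Nr1h3, the oxysterol receptor that drives cholesterol efflux and lipogenic genes, also fell early. It read 555 and 684 at 2 h and 503, 867 and 413 at 4 h, against 1382, 1180.0, 1847 and 1580.1 in the short-course controls. Every array of both times was below every control. The change was -0.92 ± 0.29 (adjusted p = 0.0324, 5 of 5 arrays below the control mean) at 1-2 h and -0.66 ± 0.24 (adjusted p = 0.0372) at 4-8 h, and the single times 2 h (-1.22) and 4 h (-1.34) passed.

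The 4-8 h arrays of Nr1h3 were widely spread, at 413 to 1646 with a median of 1059, and 11 of 17 were below every control. At 7 h they read 1554, 1624 and 459 and at 8 h 1646, 1459 and 613, so replicates of 1 time lay on both sides of the lowest control. The low array of each of these times is among those of low correlation. Without the 9 such arrays the change was -0.23 at 4-8 h (adjusted p = 0.549), -0.74 at 1-2 h (0.102) and -0.96 at 2 h (0.114), while 4 h kept its call.

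At 12 h Nr1h3 read 1976 and 2002, above every control, and at 30-72 h it was 1332 to 1729 with a median of 1515, inside the range of the controls. The later window lay 0.72 ± 0.19 (adjusted p = 0.00351, 7 of 7 arrays above the 4-8 h mean) above 4-8 h, and 0.39 above it without the arrays of low correlation (adjusted p = 0.0329). Single left-out arrays ended the 1-2 h call for 1 h replicate 2, 2 h replicates 1 and 2 and control replicates 1, 3 and 4 (adjusted p = 0.0508 to 0.121). They ended the 4-8 h call for 4 h replicate 3, 5 h replicate 2, 6 h replicate 1 and control replicates 1, 3 and 4 (0.0511 to 0.159), and the 2 h call for 2 h replicates 1 and 2 and control replicates 3 and 4 (0.0511 to 0.239).

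Markers of liver cells differed from control in the windows of these decreases, and their part in the receptor results was not tested. The 18 hepatocyte secretory markers summed to 123500 to 274500 with a median of 149300 at 0.25-0.75 h and to 158300 to 249000 with a median of 191700 at 4-8 h, against 138900 to 443000 with a median of 292700 in the controls. The groups overlapped, and 0 of 18 tested rose and 4 fell in the first of these windows (list median -0.60) and 0 of 18 tested rose and 5 fell in the second (list median -0.38). The medians of all probe sets there were 0.08 and 0.10. Of all 6118 probe sets 151 rose and 58 fell at 0.25-0.75 h.

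The 6 Kupffer cell and macrophage markers on the short-course design (of 14 listed) summed to 10080 to 22640 with a median of 19260 at 1-2 h and to 10940 to 23660 with a median of 15240 at 4-8 h, against 7653 to 10800 with a median of 9940 in the controls. All 17 arrays at 4-8 h were above every control in this sum, and 2 of 5 tested rose and 1 fell. The list median did not rise with the sum. It was 0.02 at 1-2 h and 0.09 at 4-8 h, against 0.06 and 0.10 for all probe sets. The 3 neutrophil markers (of 12), among them S100a8 and S100a9, summed to 1169 to 5949 with a median of 4298 at 1-2 h and to 532.1 to 4726 with a median of 1288 at 4-8 h, against 131.5 to 665.5 with a median of 215.6 in the controls, and 3 of 3 tested rose and 0 fell at 4-8 h. The log2 ratio of the 3′ to the 5′ Gapdh probe set is a measure of RNA quality. It was -0.02 ± 0.12 at 4-8 h (SD, n = 17), against 0.14 ± 0.14 in the controls (SD, n = 4). On 0.5 h replicates 1, 2 and 3 it was 0.67, -0.32 and -0.24. The mean correlations of these 3 arrays were 0.9011, 0.9005 and 0.8978, beside the limit of 0.9.

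On the long-course arrays Nr1h3 moved in both directions. It read 208, 282, 217 and 196 at 6 h and 318, 293, 316 and 303 at 10 h, against 354, 322, 360.5 and 354 in the controls. All 8 of these arrays were below every control, and all 4 arrays at each of 13, 24, 36, 48, 72, 96 and 168 h were above every control. The change was -0.57 ± 0.13 (adjusted p = 0.00381) at 6 h (background 4.6%), 0.53 ± 0.13 (adjusted p = 0.00833) at 36 h (5.07%) and 0.59 ± 0.13 (adjusted p = 0.002) at 168 h (7.43%).

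The Nr1h3 change was 0.39 ± 0.10 (adjusted p = 0.0179, 12 of 12 arrays above the control mean) at 24-48 h and 0.38 ± 0.10 (adjusted p = 0.0111, 12 of 12 arrays above the control mean) at 72-168 h, and the later window lay 0.47 ± 0.07 (adjusted p = 2.66e-06) above 6-18 h. Without control replicate 2, the lowest of the 4 for Nr1h3, the changes were 0.35 and 0.35 and missed the threshold (adjusted p = 0.0898 and 0.0506). On the arrays with dim spiked controls they were 0.36 (adjusted p = 0.0706) and 0.30 (0.144). The 168 h change there was 0.34, from 168 h replicate 1 alone. On those with bright ones, which hold 1 control, they were 0.42 (0.986) and 0.41 (0.808), and with the split as a block 0.38 in each window (0.0165 and 0.0131). The difference between 72-168 h and 6-18 h was 0.36 (0.0124) on the dim arrays and 0.59 (0.269) on the bright ones.

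Among Nr1h3 targets 1 of 9 rose and 1 fell at 4-8 h of the short course, where Srebf1, the lipogenic transcription factor, fell by 1.40 ± 0.29 (adjusted p = 0.000543). Of the long-course list 1 of 16 rose and 5 fell at 6-18 h. The gene that rose is Cyp7a1, already named with the bile acid genes, so the 2 lists share it. At 24-48 h 0 of 16 rose and 2 fell. At 72-168 h 2 of 16 rose and 5 fell, and the list median was -0.08 against -0.03 for all probe sets. At 72-168 h Acaca, the rate-limiting enzyme of fatty acid synthesis, rose by 2.03 ± 0.34 (adjusted p = 4.1e-05) and the fatty acid synthase Fasn rose by 1.88 ± 0.42 (adjusted p = 0.00194). The desaturases Fads2 and Fads1 went the other way in that window: Fads2 fell by 1.89 ± 0.26 (adjusted p = 1.88e-06) and Fads1 fell by 1.23 ± 0.39 (adjusted p = 0.0319).

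Nr1i3, the drug-sensing receptor that induces Cyp2b genes in rodents, had the largest increase of the members. It read 164, 224, 275 and 298 at 72 h, 305, 181, 316 and 282 at 96 h and 207, 156, 164 and 305 at 168 h, against 108, 27.4, 129 and 65.3 in the long-course controls. All 12 arrays at 72-168 h were above every control. The change was 1.31 ± 0.19 (adjusted p = 2.85e-06), or 2.48 times the control level.

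The increase stood out from 36 h on. At 6-18 h Nr1i3 was 73.9 to 146 with a median of 111, with 4 of 16 arrays above every control and a change of 0.40 ± 0.18 (adjusted p = 0.169). At 24-48 h it was 86.6 to 296 with a median of 163, with a change of 0.84 ± 0.19 (adjusted p = 0.0036, 12 of 12 arrays above the control mean). Within that window it read 102, 102, 117 and 86.6 at 24 h, 174, 210.5, 212 and 126 at 36 h and 154, 280.0, 172 and 296 at 48 h, so that 0, 3 and 4 arrays of these times exceeded every control. Single times passed at 36 h, 48 h (background 4.01%), 72 h (5.74%), 96 h (8.09%) and 168 h, with changes between 0.98 and 1.48, and 72-168 h lay 0.91 ± 0.12 (adjusted p = 7.79e-07) above 6-18 h.

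Control replicate 2 was the dimmest of the 4 for Nr1i3. Without it the change was 0.56 at 24-48 h (adjusted p = 0.0921) and 0.69 at 36 h (0.072), so both calls ended. At 72-168 h it was then 1.03 (0.000194). On the arrays with dim spiked controls the 72-168 h change was 1.19 (adjusted p = 0.00241) and the 24-48 h change 0.84 (0.0274). On those with bright ones they were 1.59 (0.165) and 0.80 (0.986), and with the split as a block 1.30 and 0.84 (5.27e-06 and 0.00349). Of the 5 single times that passed, 48 h did not on the dim arrays alone (1.13, adjusted p = 0.0519). The 168 h change there was 1.12, from 168 h replicate 1 alone. On the bright arrays, with 1 control, the 5 changes ranged from 0.70 at 36 h to 1.77 at 96 h. The difference between 72-168 h and 6-18 h was 0.88 (0.00216) on the dim arrays and 0.92 (0.147) on the bright ones.

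Nr1i2, the pregnane X receptor that induces Cyp3a genes, rose late and by less. It read 333, 452, 418 and 512 at 72 h, 507, 283, 354 and 481 at 96 h and 314, 339, 345 and 381 at 168 h, against 365, 184, 243 and 235 in the controls. Of these 12 arrays 6 exceeded every control and 0 were below all of them. The 72-168 h change was 0.57 ± 0.16 (adjusted p = 0.0106, 12 of 12 arrays above the control mean), and 72-168 h lay 0.33 ± 0.10 (adjusted p = 0.0182) above 6-18 h.

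The Nr1i2 changes at 6-18 h and 24-48 h did not pass, with 0.25 ± 0.15 (adjusted p = 0.353) and 0.37 ± 0.16 (adjusted p = 0.191). Single times passed at 36 h (0.63), 72 h (0.70) and 96 h (0.61). The 72-168 h call ended without control replicate 2 (0.45, adjusted p = 0.0984) and with array weights (0.0652). The change was 0.46 on arrays with dim spiked controls (adjusted p = 0.178), 0.77 on those with bright ones (0.504) and 0.55 with the split as a block (0.0149). The difference between 72-168 h and 6-18 h was 0.28 (0.254) on the dim arrays and 0.32 (0.609) on the bright ones, and the 3 single times did not pass on either. Single left-out arrays ended the 36 h call for 36 h replicates 2, 3 and 4 and control replicates 2, 3 and 4 (0.053 to 0.179), the 72 h call for 72 h replicates 2 and 4 and control replicate 2 (0.0574 to 0.101), and the 96 h call for 96 h replicates 1, 3 and 4 and control replicates 2, 3 and 4 (0.0518 to 0.153).

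In every window of the long course, also at 6-18 h where 0 members passed, the 8 Kupffer cell and macrophage markers had lower median sums than in the controls. Their part in the receptor results was not tested. They summed to 1730 to 2489 with a median of 2158 at 24-48 h and to 1597 to 3889 with a median of 2094 at 72-168 h, against 3067 to 3404 with a median of 3269 in the controls. All 12 arrays at 24-48 h were below every control, and 0 of 8 tested rose and 5 fell, with a list median of -0.58. At 72-168 h 0 of 8 tested rose and 3 fell. The sum at 6-18 h was 1393 to 3047 with a median of 2296, so all 16 arrays were below every control. There 0 of 8 tested rose and 3 fell. Lower medians at 72-168 h were also seen for endothelial and stellate (1934 against 2520), cholangiocyte (182.1 against 284.7) and lymphocyte markers (462.3 against 542.4), with overlap. The hepatocyte median was higher than in the controls. The neutrophil (203.4 against 196) and erythroid (2624 against 2610) medians were close to those of the controls, with overlap.

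The hepatocyte markers summed to 116900 to 299400 with a median of 204100 at 72-168 h, against 148600 to 257000 with a median of 152400 in the long-course controls, with overlap. The Gapdh ratio was 0.36 ± 0.05 at 72-168 h (SD, n = 12), against 0.10 ± 0.20 in the long-course controls (SD, n = 4). No probe set of the marker lists was at 0 on any array of either course.

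**Figure D3:**
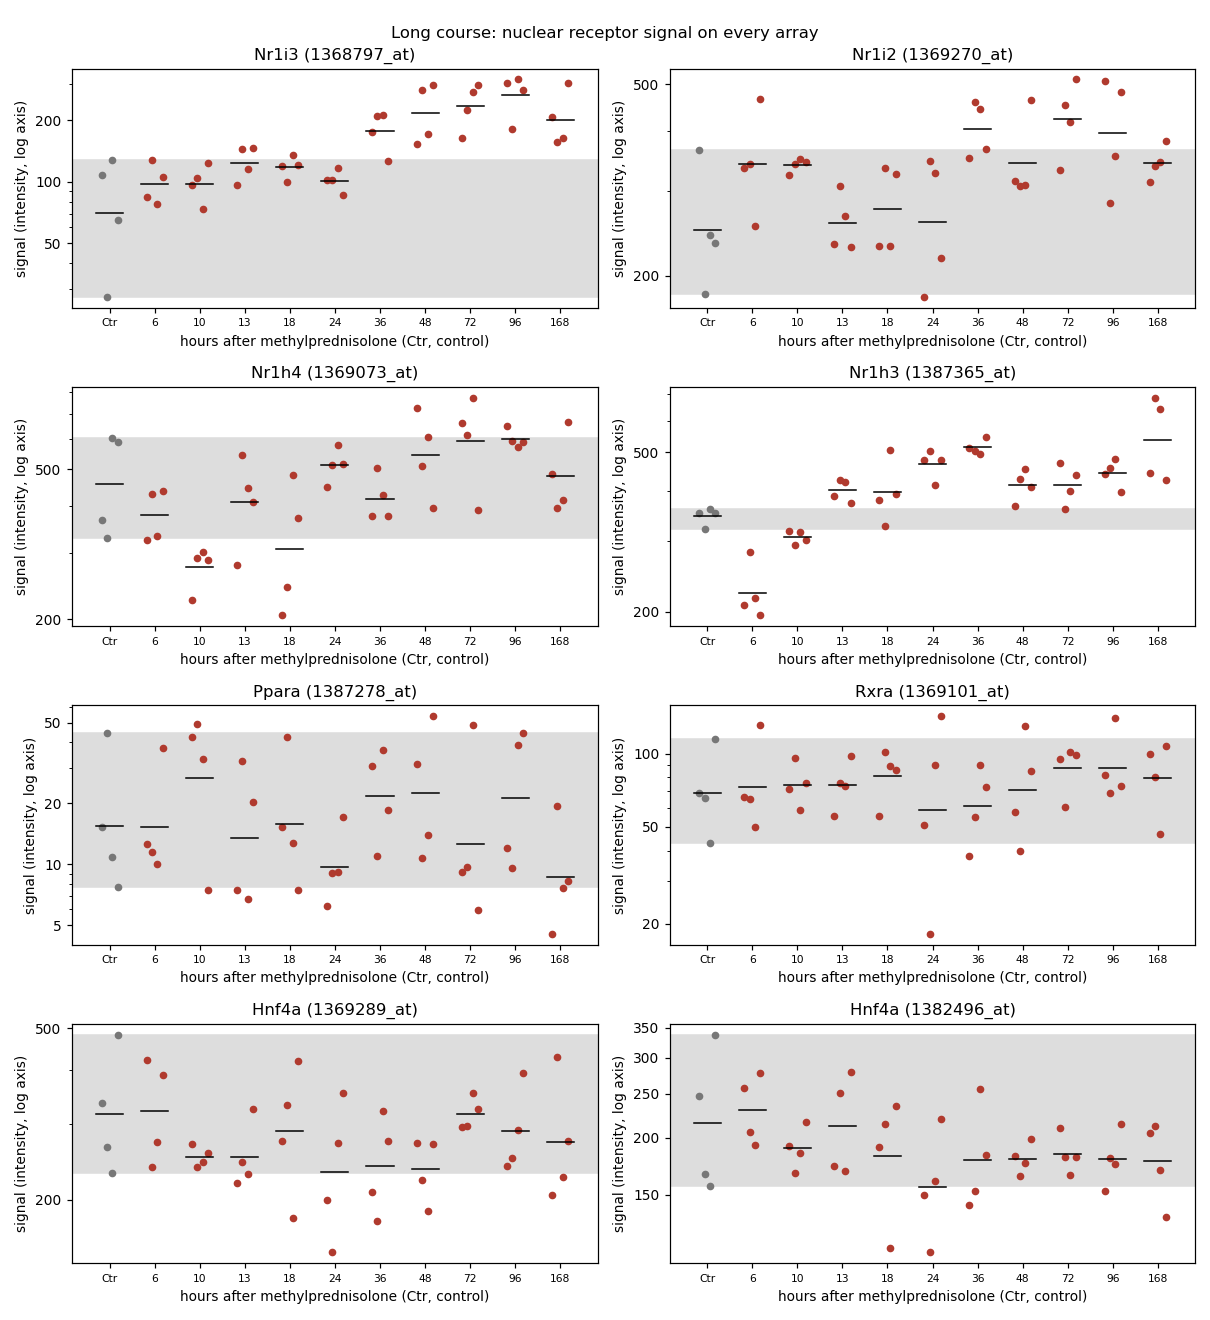
Signal (y axis, log scale) of the 8 member probe sets on every array of the long course, by hours after methylprednisolone with the controls (Ctr) at the left. Red points are treated arrays and grey points controls, bars are geometric means, and the grey band spans the controls. Nr1i3 lies above the band on all 12 arrays from 72 to 168 h, and Nr1h3 lies below it at 6 and 10 h and above it from 24 h on.

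Nr1i3 and Nr1i2 had a Pearson's r of 0.755 between their 11 group means, which share the same arrays. The bases before the annotated starts of Nr1i3, Nr1i2 and Nr1h3 are printed because these members rose in the long course, and glucocorticoid and nuclear receptors act through short DNA elements, some of them near starts. The sequences are RefSeq's, build GRCr8, 250 bases each, 5′ to 3′ on the gene's strand: chr13:86165170-86165419 (plus strand) for Nr1i3, chr11:75965467-75965716 (plus strand) for Nr1i2 and chr3:97623230-97623479 (minus strand) for Nr1h3. Capitals mark the letters AGAACA, a hexamer of the glucocorticoid response element.
Nr1i3: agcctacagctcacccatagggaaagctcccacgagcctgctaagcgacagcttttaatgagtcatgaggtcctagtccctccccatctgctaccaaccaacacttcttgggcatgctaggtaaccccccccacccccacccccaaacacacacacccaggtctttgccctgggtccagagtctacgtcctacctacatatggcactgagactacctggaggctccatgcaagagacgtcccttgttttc
Nr1i2: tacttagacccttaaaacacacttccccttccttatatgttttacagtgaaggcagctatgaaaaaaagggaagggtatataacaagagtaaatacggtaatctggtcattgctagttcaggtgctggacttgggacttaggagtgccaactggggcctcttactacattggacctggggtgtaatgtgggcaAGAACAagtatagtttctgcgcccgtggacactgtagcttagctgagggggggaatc
Nr1h3: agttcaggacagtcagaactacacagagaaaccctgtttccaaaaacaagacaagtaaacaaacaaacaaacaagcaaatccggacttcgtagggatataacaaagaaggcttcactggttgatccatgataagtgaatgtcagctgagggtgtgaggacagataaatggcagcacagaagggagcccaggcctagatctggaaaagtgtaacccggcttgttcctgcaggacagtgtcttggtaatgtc
The windows were searched on both strands for 5 motifs. Of 33469 windows of this length in the table, 17.5% held AGAACA. The nuclear receptor motif AGGTCA was in 14.1%, and its direct repeat with 1 base between the copies, which also counts as the single motif, in 0.0508%. The Hnf4a motif TGGACTTTG was in 0.338% and the E-box CACGTG in 5.59%. The only match in the windows of the 6 members with an entry was 1 AGAACA in Nr1i2, from base -57 to base -52 before the start.

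The target genes of Nr1i2 and Nr1i3 overlap and were read as 1 list of drug-metabolising enzymes and transporters. Of the long-course list 5 of 20 rose and 0 fell at 6-18 h, 5 of 20 rose and 0 fell at 24-48 h and 4 of 20 rose and 4 fell at 72-168 h. The list medians in these windows were -0.04, 0.43 and 0.18, against -0.03, -0.04 and -0.03 for all probe sets. At 24-48 h the carboxylesterase Ces2c rose by 2.27 ± 0.44 (adjusted p = 0.000836), Por, the electron donor of microsomal cytochromes, rose by 1.38 ± 0.33 (adjusted p = 0.00837), and the cytochrome Cyp3a18 rose by 0.87 ± 0.25 (adjusted p = 0.0265).

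At 72-168 h, when both receptors were above control, list genes moved in both directions. Por rose by 1.97 ± 0.33 (adjusted p = 5.57e-05) and Ces2c rose by 1.93 ± 0.44 (adjusted p = 0.00227). Aldh1a1, a retinal dehydrogenase, fell by 2.21 ± 0.32 (adjusted p = 3.74e-06), and Slco1a4, a sinusoidal uptake transporter, fell by 1.74 ± 0.35 (adjusted p = 0.000484). At 4-8 h of the short course, which has no probe set for either receptor, 1 of 22 rose and 5 fell. There Por rose by 1.57 ± 0.23 (adjusted p = 1.01e-05) and Aldh1a1 fell by 1.21 ± 0.27 (adjusted p = 0.00108).

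**Figure D4:**
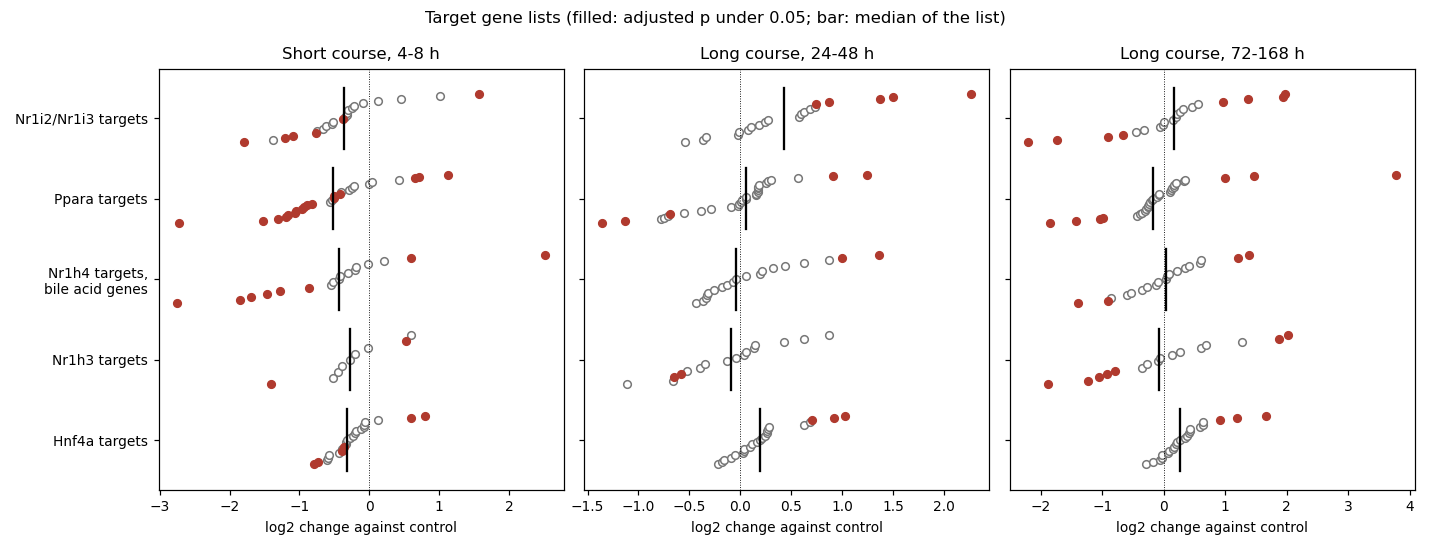
Log2 change against control (x axis) of the tested genes of 5 target lists, for the 4-8 h window (short course) and the windows 24-48 h and 72-168 h (long course). Each point is 1 gene, filled where the adjusted p is under 0.05, and the bar is the median of the list. The Ppara list has its median at -0.52 at 4-8 h, and the list of Nr1i2 and Nr1i3 targets has its median at 0.43 at 24-48 h.

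Ppara, the fatty acid receptor, passed in no window and at no single time of the short course. Its signal was 149 to 437 with a median of 269 on the 17 arrays at 4-8 h, against 232, 222, 211 and 179.9 in the controls. Of these 17 arrays 12 were above every control and 1 was below all of them. The change was 0.34 ± 0.18 (adjusted p = 0.167), and that at 8 h, where Ppara read 249, 379 and 384, was 0.58 ± 0.25 (adjusted p = 0.107). On the long-course arrays its probe set was dim, with a mean signal of 20.3 under the filter at 35.7, and was not tested. It read 4.6 to 53.8 at 6-168 h, against 15.3, 44.4, 10.9 and 7.8 in the controls.

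Ppara targets, genes of fatty acid oxidation in mitochondria and peroxisomes, were read beside it. At 4-8 h of the short course 3 of 26 rose and 14 fell, with a list median of -0.52 against 0.10 for all probe sets. Pdk4, a kinase that inhibits pyruvate oxidation, fell by 2.73 ± 0.47 (adjusted p = 6.76e-05). Ehhadh, a peroxisomal oxidation enzyme, fell by 1.53 ± 0.37 (adjusted p = 0.00251), Acsl1, a fatty acid CoA ligase, fell by 1.31 ± 0.30 (adjusted p = 0.00153), and Acaa1b, a peroxisomal thiolase, fell by 1.19 ± 0.31 (adjusted p = 0.00465). At 72-168 h of the long course 3 of 29 rose and 4 fell, among them Cyp4a8, a fatty acid hydroxylase, which rose by 3.78 ± 0.29 (adjusted p = 2.41e-12), and Ehhadh, which fell by 1.84 ± 0.31 (adjusted p = 3.96e-05).

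Rxra, the partner of the receptors above, passed at 2 h of the short course alone. Its arrays at that time read 57.8 and 88.8, against 517, 578, 692 and 461 in the controls, and both were below every control. The change was -2.50 ± 0.64 (adjusted p = 0.00942). The call ended without 2 h replicate 1 (adjusted p = 0.14) and without all arrays of low correlation (-2.18, adjusted p = 0.195). The 1-2 h change of -1.44 ± 0.50 (adjusted p = 0.0531) passed under 4 other settings, among them median centring (0.0432) and quantile normalization (0.0461). It also passed in 11 fits that left out 1 array. At 0.5 h, which did not pass, Rxra read 61.9 to 360.8 on 3 arrays, all below every control.

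The short-course Rxra values moved with the arrays that stood apart, and the part of those arrays in them was not tested. All 7 treated arrays of low correlation were below every control, at 57.8 to 356.7 with a median of 240.6. Of the other 36 treated arrays 8 were below and 17 above every control, at 61.9 to 1173.5 with a median of 658.3. At 4-8 h replicates of 1 time read 1004 and 239 (5 h), 1174, 768 and 241 (7 h) and 746, 967 and 245 (8 h), and the window change was -0.02 ± 0.41 (adjusted p = 0.977), with 0.44 (adjusted p = 0.69) without the arrays of low correlation. On the long-course arrays Rxra was 46.7 to 140.2 with a median of 88.4 at 72-168 h, against 68.6, 66.1, 43.1 and 115 in the controls, and its change of 0.20 ± 0.22 (adjusted p = 0.656) did not pass.

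Hnf4a was read by 3 short-course probe sets, which differed in their calls. On the brightest, X57133mRNA_at, it read 504, 787 and 979.6 at 0.5 h and 816 and 804 at 2 h, against 1156, 1769, 2036 and 1380.2 in the controls. Every array of both times was below every control. The change was -1.05 ± 0.30 (adjusted p = 0.0236) at 0.5 h and -0.73 ± 0.27 (adjusted p = 0.0652) at 1-2 h, and the 1-2 h change passed with quantile normalization (0.0459) and with median centring (0.0371).

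The probe set X57133mRNA_g_at, named after the same sequence record, read 150.4, 238 and 355 at 0.5 h and 130.1 and 257 at 2 h, against 432, 732, 795 and 534 in the controls. All of these treated arrays were below every control. It passed at 1-2 h with -1.14 ± 0.31 (adjusted p = 0.0148, 5 of 5 arrays below the control mean), at 0.5 h with -1.26 and at 2 h with -1.56. On D10554_s_at the change was -0.28 ± 0.25 (adjusted p = 0.487) at 1-2 h and 0.36 ± 0.21 (adjusted p = 0.195) at 4-8 h. At 8 h it read 1620 to 1918 on 3 arrays, above the highest control at 1382, though no single time passed. By the F test over all times D10554_s_at (adjusted p = 0.0439) and X57133mRNA_g_at (0.0161) passed and X57133mRNA_at (0.0849) did not. At 4-8 h 10 of the 17 arrays of D10554_s_at, 1 of X57133mRNA_at and 3 of X57133mRNA_g_at were above every control.

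The early Hnf4a calls rested on few arrays. Leaving out 0.5 h replicate 1 or 2 or control replicate 3 ended the 0.5 h call on X57133mRNA_at (adjusted p = 0.0505 to 0.129) and on X57133mRNA_g_at (0.0517 to 0.11). On X57133mRNA_g_at each of 1 h replicate 2, 2 h replicate 1 and control replicate 3, when left out, ended the 1-2 h call (0.0566 to 0.102) and 2 h replicate 1 ended the 2 h call (0.229). Without the arrays of low correlation the 1-2 h change of X57133mRNA_g_at was -0.97 (adjusted p = 0.126). Its 2 h change was -1.19, from 2 h replicate 2 alone. The 0.5 h change of X57133mRNA_at was then -1.27 (adjusted p = 0.0663), while X57133mRNA_g_at kept its 0.5 h call.

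Neither long-course probe set of Hnf4a passed in a window or at a single time. The brighter was 151 to 354 with a median of 246 at 24-48 h, against 336, 264, 231 and 483 in the controls, and changed by -0.38 ± 0.19 (adjusted p = 0.291). The dimmer changed by -0.29 ± 0.16 (adjusted p = 0.361) in that window. Of the Hnf4a targets, which include apolipoproteins, clotting factors and metabolic enzymes, 3 of 23 rose and 0 fell at 72-168 h (background 10.8%). The list median was 0.26 against -0.03 for all probe sets. Apoa4, an apolipoprotein, rose by 1.66 ± 0.29 (adjusted p = 9.16e-05), Pklr, the liver pyruvate kinase, rose by 1.19 ± 0.38 (adjusted p = 0.0357), and Tat, a tyrosine aminotransferase, rose by 0.91 ± 0.27 (adjusted p = 0.024). At 4-8 h of the short course 2 of 23 rose and 4 fell, near the share of all probe sets called there (27%).

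Other nuclear receptors were read beside the members. At 4-8 h 3 of 22 rose and 6 fell in the short course (background 27%). The thyroid hormone receptor Thra rose by 0.97 ± 0.29 (adjusted p = 0.0123), and Rxrg, a relative of Rxra, fell by 1.43 ± 0.39 (adjusted p = 0.00644). At 6-18 h of the long course 1 of 23 rose and 1 fell (background 9.31%). Esrra, an orphan receptor of mitochondrial metabolism, rose by 0.66 ± 0.18 (adjusted p = 0.0126) there. At 4-8 h of the short course Med1, a mediator subunit, rose by 0.35 ± 0.11 (adjusted p = 0.0143), as 1 of the 3 receptor coregulators tested there. Of the other liver-enriched factors Foxa2 fell by 0.70 ± 0.20 (adjusted p = 0.00896) at 4-8 h in the short course, as 1 of 7 tested. At 6-18 h of the long course it fell by 0.67 ± 0.15 (adjusted p = 0.0025), and of the 10 factors tested there 0 rose and 2 fell.

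Genes whose group means were most like a member's were found by Pearson's r over 17 groups in the short course and 11 in the long one, a description whose points share arrays. For short-course Nr1h4 they were Sult2a1 (0.935), Ndufs6 (0.926) and Lama3 (0.923), and for Nr1h3 Ndufc1 (0.957), Qdpr (0.956) and Akr7a2 (0.955). The closest to Rxra was Alkbh2 (0.941), to Hnf4a Alkbh2 (0.906) and to Ppara Ptp4a2 (0.88). For Nr1i3 they were Tango2 (0.963), Slc27a5 (0.954) and Slc37a4 (0.948), for Nr1i2 Clk3 (0.942), Pcmtd1 (0.927) and Sra1 (0.926) and for long-course Nr1h3 Svip (0.965), Ormdl2 (0.955) and Acbd4 (0.949). The closest to long-course Nr1h4 was Cars2 (0.937), to Hnf4a Ambra1 (0.918) and to Rxra Crtc3 (0.892).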

How the data were processed

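The authors deposited 1 intensity per probe set and array on a linear scale, and how probes were combined is not given in the sources used here. Trimmed means (2% off each end) were 801 on short-course arrays and 150 on long-course arrays, and 6 h replicate 3 of the short course, at 150, was rescaled. Titles gave groups, and 96 h replicate 1 of the long course, described as 72 h, kept its title. Control probe sets and those under the 30th percentile of mean signal (91.2 and 35.7) were left out. limma 3.58.1 in R 4.3.3 fitted group means with a trended variance on log2 values, and windows average their times. The code was tested on simulated data. The precision is limited by how many arrays there were. The brightest probe set stood for a gene in the lists, and up to 4 passing genes per list were named by size of change. The lists overlap, and of the named genes Nr0b2 and Cyp7a1 are each on 2. Members and lists were chosen with earlier results of these data known. Alternatives were other scalings, added constants, filters, weights, blocks and left-out arrays.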

Additional observations from a re-analysis of the deposited data

Results flagged for a closer look

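Of 95 groups of 4 arrays, 5 held an array far from the others, close to the 5% (1 in 20) that chance gives. Nr1h3 was low on control replicate 2 of the long course, at 322.4. Nr1i2 was high on 48 h replicate 4, at 463.8, and Rxra low on 72 h replicate 2, at 60.2. Ppara, dim throughout, was high on 6 h replicate 4, at 37.7, and on 72 h replicate 3, at 48.9.

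The change against control differed between the last window and an earlier one for 6 probe sets, by limma's test of that difference. In the short course Nr1h4 lay 1.61 and Nr1h3 0.72 higher at 30-72 h than at 4-8 h. In the long course Nr1i3 lay 0.91, Nr1h4 0.66, Nr1h3 0.47 and Nr1i2 0.33 higher at 72-168 h than at 6-18 h.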

How the results depend on the processing

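Of 5415 alternative values of 95 member changes, 5250 kept their side of the threshold (72 uncalled changes among them with the other sign), 145 lost a call, 20 gained one and 0 called changes reversed. The counts of members that passed moved as follows, and the cause was not tested. Quantile normalization and median centring each gave 5 at 1-2 h of the short course, against 3. Without the 9 short-course arrays of low correlation, 3 passed at any time, 0 at 0.25-0.75 h, 0 at 1-2 h and 1 at 4-8 h. The low spike-in arrays of the long course alone gave 1 at 24-48 h and 1 at 72-168 h, and the high ones alone, with 1 control, gave 0 at any time, 0 in both windows and 0 for 72-168 h against 6-18 h. No such split existed in the short course, so these fits were not run there. With the replicate number as a block, 1 passed at 4-8 h, since Nr1h3 no longer did (adjusted p = 0.0992), nor at 1-2 h (0.071). The labels do not say that a replicate number marks a shared animal or day, and not every pair deviated together: deviations of same-numbered arrays correlated above 0.1 in 88 of 338 pairs of the short and 75 of 220 of the long course, and 7 of 46 and 18 of 44 arrays correlated best with their own number. In the long course all 11 arrays numbered 4 had bright spiked controls, so number and that split are partly the same. Leaving out 1 array gave 2 to 6 at any time (2 without 2 h replicate 1), 0 to 1 at 0.25-0.75 h, 1 to 5 at 1-2 h, 1 to 2 at 4-8 h, 0 to 0 at 12-18 h and 30-72 h and 2 to 2 for the late comparison of the short course. It gave 4 to 4, 0 to 0 at 6-18 h, 0 to 2 at 24-48 h, 1 to 3 at 72-168 h (0 and 1 without control replicate 2) and 4 to 4 in the long course. Dim signal limits Ppara in the long course.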
